A study of Homo sapiens with 2 samples.

Results

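The data described here are the chromatin interactions at 10 genes that encode transcription factors of the B lineage, taken from a TCF3::HLF-HiChIP experiment in a leukemia cell line. The genes are PAX5, EBF1, IKZF1, IKZF2, IKZF3, FOXO1, FOXP1, BACH2, IRF4 and IRF8. An interaction, a line of the deposited list that joins 2 bins of 5 kb, was counted for a gene when either bin overlapped the gene body or 10 kb around it (GENCODE release 44, hg38). This gave 276 of the 49245 listed interactions, at 9 of the 10 genes, and no interaction was shared by 2 of the genes.

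HiChIP combines the enrichment of chromatin that carries a given protein with the joining of DNA ends that lie close together in the nucleus. In this study the antibody step came before the joining. The cells were HAL-01, an established acute lymphoblastic leukemia line with the t(17;19) translocation that makes the TCF3::HLF fusion protein. They stably carried Cas9GFP, and their wild-type TCF3 had been knocked out, so that the E2A antibody (CST #12258) could enrich the fusion and not the normal protein. The study describes the knockout line as grown out by limiting dilution, which makes it 1 clone as a model. There were 2 replicates of this 1 condition, with no cells lacking the fusion for comparison, and the authors merged both before calling interactions. The list therefore has no spread between replicates, and no comparison below carries a test across samples. The list measures neither TCF3 nor the expression of any gene, so the knockout and the cell type were not checked here. Intervals are 95% intervals that cover counting error only, and copies of the same read pair had not been removed. The intervals of shares and medians treat interactions or bins as independent. Many interactions share a bin, so those intervals can be too narrow.

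PAX5 and EBF1 are the factors that commit early progenitors to the B lineage and hold them there. The Ikaros family (IKZF1, encoding Ikaros, IKZF2, encoding Helios, and IKZF3, encoding Aiolos) consists of zinc finger proteins of lymphoid cells, and IKZF1 and PAX5 are frequent targets of deletion in B cell leukemia. FOXO1 and FOXP1 are forkhead factors needed for immunoglobulin gene rearrangement in B cell precursors, BACH2 is a repressor that restrains plasma cell differentiation, and IRF4 and IRF8 act together at the pre-B cell stage. The HLF part of the fusion is a bZIP domain that binds DNA as a dimer, with TTACGTAA as its preferred site. The number of copies of these loci in HAL-01 was not measured here, and contact counts were not corrected for it.

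**Figure D1:**
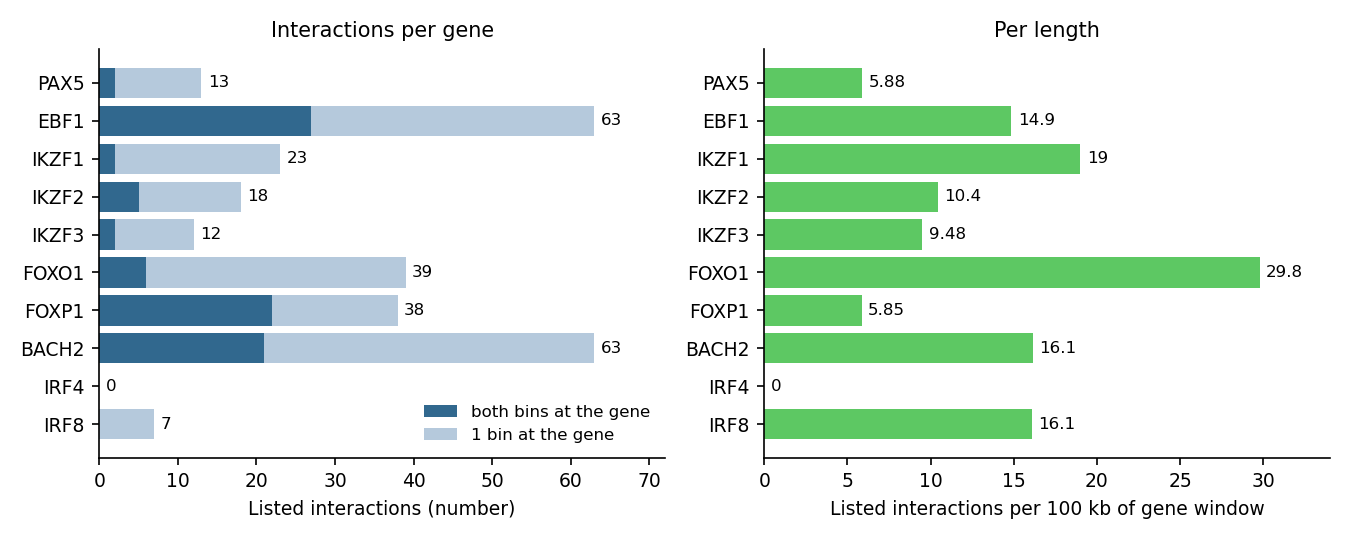
Listed interactions at each of the 10 genes (left, number, split by whether both bins or 1 bin lay at the gene) and per 100 kb of the gene with its flanks (right). EBF1 and BACH2 had the most with 63 each, FOXO1 had the most per length with 29.8 per 100 kb, and IRF4 had 0.

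EBF1 and BACH2 each had 63 interactions, and together they held 45.7% of the 276. FOXO1 followed with 39, FOXP1 with 38, IKZF1 with 23, IKZF2 with 18, PAX5 with 13, IKZF3 with 12 and IRF8 with 7, and IRF4 had 0. Of all 20033 protein-coding genes, 64.3% had at least 1 interaction, and the median was 1. Having an interaction at all was therefore common. Of the 10 genes, 9 lay above the median number, and the share of all protein-coding genes above it was not computed. Gene length enters such counts, as a long gene offers more bins. The median was 0 over the 10510 protein-coding genes whose body and flanks spanned under 50 kb. It was 4 over the 2817 that spanned 100 to 200 kb, as those of IKZF1, IKZF2, IKZF3 and FOXO1 do. For the 748 protein-coding genes whose body and flanks spanned 300 to 700 kb, as those of EBF1, FOXP1 and BACH2 do, the median was 8 interactions, and 23.9% of them had 20 or more. Counted per 100 kb, the order changed. FOXO1 led with 29.8, more than 98.3% of protein-coding genes, followed by IKZF1 with 19.0, and BACH2 and IRF8 had 16.1 each. EBF1 had 14.9, IKZF2 had 10.4 and IKZF3 had 9.48. PAX5 with 5.88 and FOXP1 with 5.85 were the lowest of the 9, and above 76.8% and 76.7% of protein-coding genes. The median was 4.23 over the protein-coding genes with an interaction. It was 2.07 over all those with a window of 300 to 700 kb, as FOXP1 has.

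Taken over the 276 interactions, the contact count, which is the number of read pairs that join the 2 bins, had a median of 24 (23 to 25) and a range of 12 to 94. The median over the whole list was also 24. The distance between the bins had a median of 252.5 kb (205 to 300 kb) at the 9 genes and of 255 kb in the list. Of the 276 interactions, 51.1% (45.2 to 56.9%) had a contact count above the median of listed interactions at the same distance (within 10% on either side), against a background of 48.2% in the list. A q-value below 1e-05 was reached by 69.9% (64.3 to 75.0%), beside 66.5% in the list. Interactions longer than 1 Mb made up 10.1% (7.11 to 14.3%), beside 13.7%. In these measures the shares and medians of the 9 genes lay near those of all interactions. The share from merged groups of more than 1 neighboring bin pair was 11.2% (8.03 to 15.5%), beside 7.69%.

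**Figure D2:**
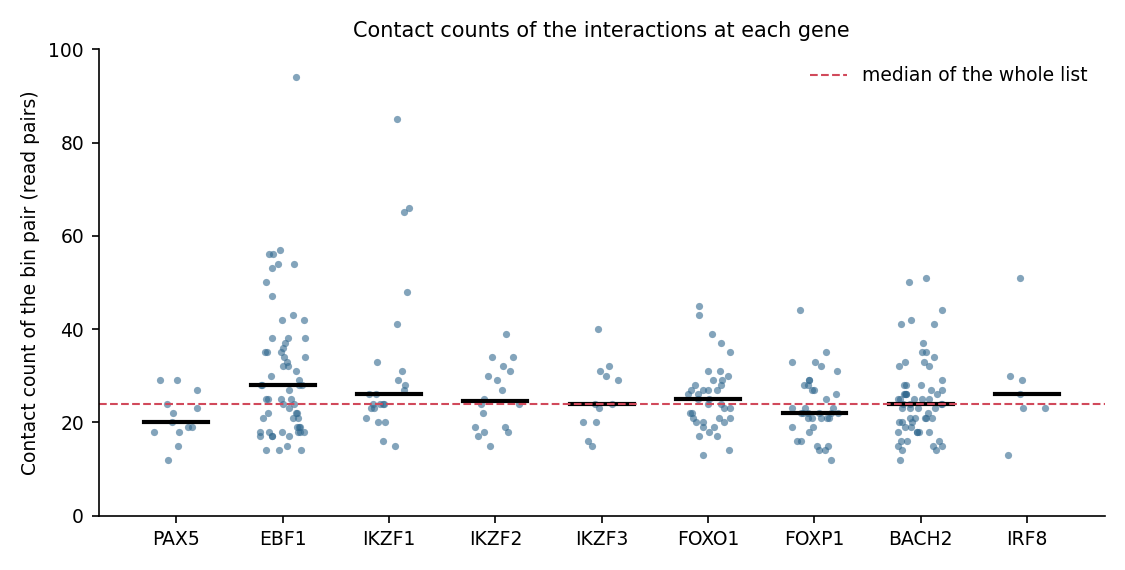
Contact count of every listed interaction (points, read pairs per bin pair) at the 9 genes that had any, with the median of each gene (black bar) and the median of the whole list (dashed line, 24). Gene medians ran from 20 at PAX5 to 28 at EBF1, and the highest points were 94 at EBF1 and 85 at IKZF1.

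Gene medians of the contact count ran from 20 (18 to 27) at PAX5 and 22 (21 to 26) at FOXP1 to 26 (23 to 31) at IKZF1, 26 (13 to 51) at IRF8 and 28 (23 to 32) at EBF1. The intervals of neighbors in this order overlapped, and so did those of PAX5 and EBF1. At the upper end of the plot, contact counts of 50 or more were found in 8 interactions of EBF1, 3 of IKZF1, 2 of BACH2 and 1 of IRF8. The largest counts of the other genes were 45 at FOXO1, 44 at FOXP1, 40 at IKZF3, 39 at IKZF2 and 29 at PAX5. A gene with more interactions has more occasions for a high count, and EBF1 had 63 interactions and PAX5 13. The share of such counts over the list was not computed. For scale, a count of 51 at BACH2 ranked 132 among 2511 listed interactions at about its distance. At EBF1 the counts of 94, 56 and 53 from the last-exon bin belonged to the same merged group, so they are not separate.

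Interactions within a gene were frequent at the long genes. Both bins lay at the same gene in 87 of the 276 interactions (31.5%, 26.3 to 37.2%), against a background of 18.5% of all interactions at protein-coding genes. The share was 57.9% (42.2 to 72.1%) for FOXP1, 42.9% (31.4 to 55.1%) for EBF1 and 33.3% (22.9 to 45.6%) for BACH2. Over the protein-coding genes of 300 to 700 kb it was 28.0%, where an interaction at several such genes counted for each. At the shorter genes most partners lay outside. The share within the gene was 27.8% (12.5 to 50.9%) for IKZF2 and 16.7% (4.70 to 44.8%) for IKZF3. It was 15.4% (7.25 to 29.7%) for FOXO1 and 8.70% (2.42 to 26.8%) for IKZF1. Over the protein-coding genes of 100 to 200 kb it was 8.64%, counted in the same way. At IRF8 all 7 partners lay outside, which was fixed in advance. All bins at its window of 43.5 kb lay closer together than the smallest listed distance of 50 kb.

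A bin with any annotated start site of the gene took part in 37 of the 276 (13.4%, 9.88 to 17.9%), beside 19.1% for the same count over all protein-coding genes. When a bin within 10 kb of a start site was counted, the number was 158 (57.2%, 51.3 to 62.9%), beside 60.5%. Both shares were lower than those of all protein-coding genes, and for the wider window the interval held the background. FOXP1, which has 71 annotated transcripts, gave 17 of the 37 interactions with a start site in the bin itself. When only the canonical start site of each gene was considered, a choice made after the data were seen, IRF8 was the only one of the 10 genes whose start-site bin was an anchor, with 2 interactions. Over all protein-coding genes, 13.3% of canonical start-site bins were anchors. The canonical start of IKZF1 lies at chr7:50304716, near the end of its bin, and the next bin, chr7:50305001-50310000, was an anchor. At PAX5, EBF1, IKZF3, FOXO1 and BACH2 an anchor also lay in a bin directly beside that of the start site. The share of all protein-coding genes with such a neighboring anchor was not computed. No interaction joined a start-site bin of the 10 genes with the promoter of another protein-coding gene. Promoters of other protein-coding genes lay in a bin of 12 interactions, which met the transcription factor genes in internal or flanking bins. One such promoter, that of GJA10, lay in a flanking bin of BACH2 itself. A start site of any protein-coding gene lay in either bin of 17.8% (13.7 to 22.7%) of the 276 interactions, beside 24.0% of the list.

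The 9 genes held 146 anchor bins. Among these, 102 had a single interaction each (69.9%, 62.0 to 76.7%), beside 78.0% of all 53535 anchor bins of the list, and 25 had 5 or more (17.1%, 11.9 to 24.1%), beside 8.60%. These 25 bins, called hubs here, were part of 215 of the 276 interactions (77.9%). Counting anchors of 5 or more interactions at either end, partner bins outside the genes included, the number was 254 (92.0%, 88.2 to 94.7%), beside 76.2% of the list. Of the 146 bins, 8 had 10 or more interactions (5.48%, 2.80 to 10.4%), against a background of 2.10%. IRF8 was the only one of the 9 genes with no hub inside. Of the 25 hubs, 2 held an annotated start site, both of them internal ones, and the others lay in introns or over internal or last exons. A hub was joined to another hub in 3 interactions. Hubs less than 50 kb apart could not be joined in the list, and no background share was computed for this count.

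HLF motifs, here exact matches to TTACGTAA or TTATGTAA on either strand, with a site that matched on both strands counted once, were present in 50 of the 146 anchor bins (34.2%, 27.0 to 42.3%). The share was 31.5% over all anchor bins, and 29.2% (22.8 to 36.4%) in 168 bins that lay 25 kb from these anchors and were no anchors themselves. The intervals of the anchors and of these flanking bins overlapped. Among the hubs, 15 of the 25 held a motif (60.0%, 40.7 to 76.6%). This interval did not overlap that of the 102 bins with 1 interaction, of which 29.4% (21.4 to 38.9%) held one, and it overlapped that of the bins 25 kb from the hubs, at 29.0% (16.1 to 46.6%). Bins with 2 to 4 interactions did not lie between these classes, at 26.3% (11.8 to 48.8%) of 19 bins. In the whole list the share was 28.5% of bins with 1 interaction, 34.3% of bins with 2 to 4 and 53.8% of bins with 5 or more. Counted over interactions, 69.6% (63.9 to 74.7%) had a motif in either bin, against a background of 66.8%. A match states only that the letters are in the bin, and binding at these letters was not measured.

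**Figure D3:**
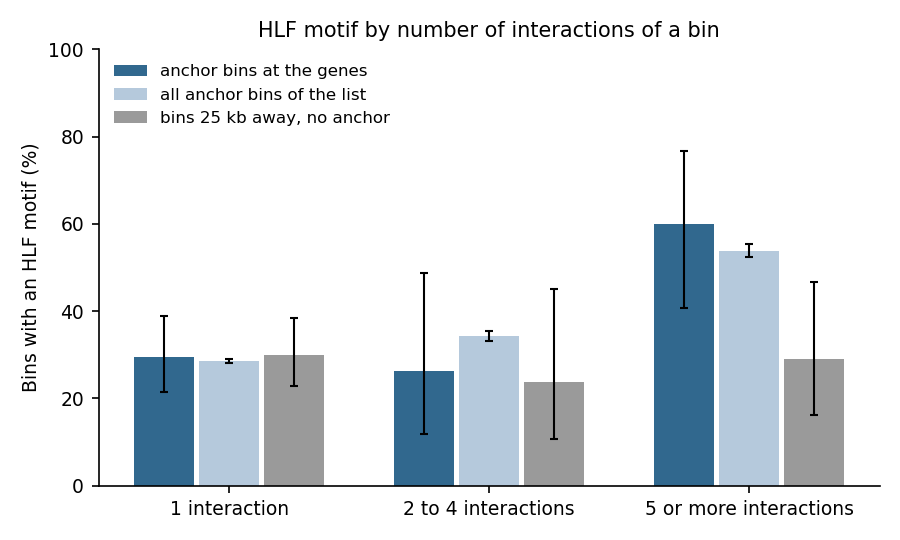
Share of bins with an HLF motif (%, with Wilson 95% intervals) for anchor bins at the 9 genes, for all anchor bins of the list and for bins 25 kb from the anchors at the genes, by the number of interactions of the anchor. In bins with 5 or more interactions the share was 60.0% at the genes and 53.8% in the list, and 29.0% in the bins 25 kb away.

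The sequences below show, for the genes with a hub that held a motif outside exons, the motifs of the busiest such hub (both of the tied hubs for BACH2), since these bins carried many of the interactions. They come from the hg38 reference, each on the strand on which the motif reads TTATGTAA or TTACGTAA, with the motif in capitals. The letters were not read from HAL-01. The last 2 lie in partner bins outside the genes.
EBF1, intron 6, chr5:158845881-158845920, plus strand: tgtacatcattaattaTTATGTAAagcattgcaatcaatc
IKZF1, intron 2, chr7:50321872-50321911, minus strand: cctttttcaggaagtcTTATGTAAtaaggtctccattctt
IKZF1, intron 2, chr7:50323027-50323066, plus strand: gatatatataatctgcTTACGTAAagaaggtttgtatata
IKZF2, intron 6, chr2:213027234-213027273, minus strand: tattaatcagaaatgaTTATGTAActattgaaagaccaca
IKZF3, bin over exon 3, chr17:39828476-39828515, plus strand: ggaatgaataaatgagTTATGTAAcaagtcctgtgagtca
FOXO1, intron 1, chr13:40581823-40581862, plus strand: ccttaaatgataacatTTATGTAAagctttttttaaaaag
FOXO1, intron 1, chr13:40582531-40582570, plus strand: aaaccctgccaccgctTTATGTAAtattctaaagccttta
FOXP1, intron 13, chr3:70990883-70990922, plus strand: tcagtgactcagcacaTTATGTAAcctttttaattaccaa
BACH2, intron 4, chr6:90198059-90198098, plus strand: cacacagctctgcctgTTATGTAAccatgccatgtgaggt
BACH2, bin over exon 5, chr6:90085801-90085840, plus strand: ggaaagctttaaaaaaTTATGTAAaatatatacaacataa
BACH2, upstream partner, chr6:90493616-90493655, minus strand: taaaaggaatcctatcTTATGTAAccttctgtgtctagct
IRF8, upstream partner, chr16:85838595-85838634, plus strand: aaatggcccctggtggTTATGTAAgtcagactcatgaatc

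Nearly all motifs in these anchors were of the TTATGTAA form. Of the 60 motifs in the 146 bins, 3 were the full palindrome TTACGTAA, in intron 2 of IKZF1, intron 1 of FOXO1 and intron 2 of FOXP1. The palindrome of IKZF1 lay in the busiest bin of that gene, and the other 2 lay in bins with 1 interaction each. Neither form was present in any of the 18 RefSeq promoters (GRCh38.p14, 300 bases around the start) that the table gave for 9 of the 10 genes, all but IKZF3, and 1.01% of all 35116 promoters held it.

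PAX5, a paired-box factor on chr9:36833269-37034268, had 13 interactions with contact counts of 12, 15, 18, 18, 19, 19, 20, 22, 23, 24, 27, 29 and 29. Of these, 11 had their other bin outside the gene, and 7 of those partners lay upstream, all within ZCCHC7, which encodes a zinc knuckle protein of nuclear RNA surveillance. The contact with the smallest P value was of this kind and joined intron 8 (chr9:36870001-36875000) with ZCCHC7 at chr9:37330001-37335000, 460 kb away. Its contact count was 29 (19.4 to 41.6, exact Poisson interval), at a q-value of 2.62e-11. The bin of chr9:37190001-37195000 within ZCCHC7 contacted PAX5 at 3 places, over intron 8, over exon 5 and in the upstream flank, with contact counts of 15 to 24. Intron 8 was the busiest bin, with 5 interactions and no HLF motif. The next 2 by P value reached a bin beside RGP1, 1235 kb away, and a bin 28 kb past the end of PAX5. The longest ran for 2945 kb to UBAP2 with a contact count of 12 (6.20 to 21.0), which was the lowest at this gene. Of the 9 genes, PAX5 had the lowest share of contact counts above the median at the same distance, with 3 of 13 (23.1%, 8.18 to 50.3%).

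EBF1, on chr5:158695920-159099916, carried the interaction with the highest contact count of the 276. It joined the bin over the last exon, chr5:158695001-158700000, with intron 9 at chr5:158780001-158785000, 85 kb apart, with a contact count of 94 (76.0 to 115), a P value of 2.28e-60 and a rank of 11 among 2511 listed interactions at about that distance. Its merged group held a summed contact count of 451. The last-exon bin was the busiest of all 146 anchors, with 23 interactions, 12 within EBF1 and 11 to bins outside, and contact counts of 17 to 94. It held no HLF motif. From the same bin a contact count of 57 (43.2 to 73.9) reached intron 6, 190 kb away. Intron 6 also held the hub with the second most interactions of the gene, chr5:158845001-158850000, with 13 interactions and the motif printed above, among them a contact 690 kb long to a bin whose nearest protein-coding gene, CLINT1, lay 296 kb away, with 56 read pairs (42.3 to 72.7) at a q-value of 2.32e-34. Such a count was high for its length, at rank 5 of 2237. Of the 36 interactions with a bin outside EBF1, 29 led downstream and 7 upstream. The median contact count was 28 downstream and 19 upstream. The median distances were 445 kb and 550 kb, so the sides were not compared at equal distance. The longest interaction, 1885 kb with a contact count of 19 (11.4 to 29.7), joined the last-exon bin with ATP10B, which encodes a lipid flippase.

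IKZF1, on chr7:50304068-50405101, was contacted mainly from upstream. Partners outside the gene lay upstream in 16 interactions and downstream in 5. The busiest bin was chr7:50320001-50325000 in intron 2, with 13 interactions and both motifs printed above. It formed the contact with the smallest P value of the gene, with chr7:50210001-50215000 at 110 kb, which was counted 85 times (67.9 to 105) at a P value of 6.09e-56, at rank 21 of 3395 for its distance. Contacts with SPATA48, the upstream neighbor of IKZF1, came next. The bin of chr7:50145001-50150000 in SPATA48 joined the bin directly past the IKZF1 start with a contact count of 66 (51.0 to 84.0), and its neighboring bin joined the intron 2 bin with a contact count of 65 (50.2 to 82.8). In all, 7 interactions reached SPATA48, and the bin of chr7:50145001-50150000 contacted IKZF1 at 5 places. Below these 3 contact counts of 65 to 85, the next of the gene was 48. The longest interaction led to C7orf57, 2315 kb away, with a contact count of 26 (17.0 to 38.1).

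**Figure D4:**
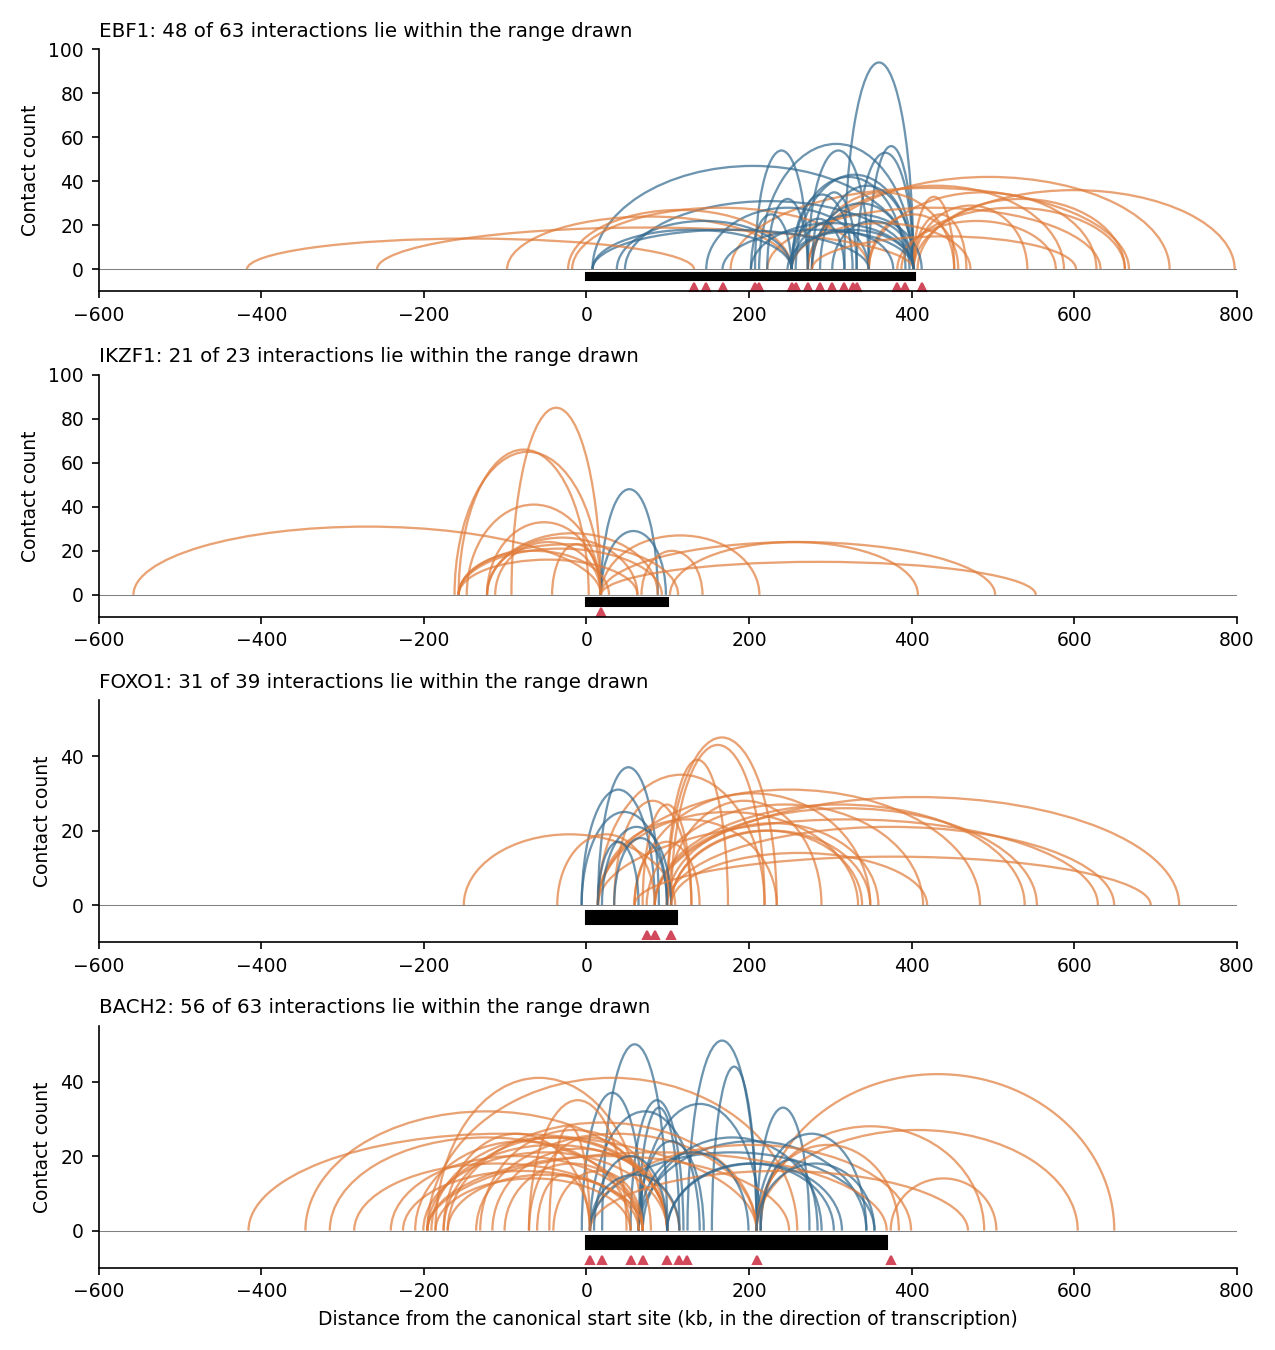
Listed interactions of EBF1, IKZF1, FOXO1 and BACH2 as arcs, with the distance from the canonical start site in kb in the direction of transcription on the horizontal axis and the contact count as the height (blue, both bins at the gene, orange, 1 bin at the gene, black bar, gene body, red triangles, anchor bins with an HLF motif). Interactions beyond 600 kb upstream or 800 kb downstream are not drawn. Interactions with a bin outside the gene led mainly downstream for EBF1 (29 of 36) and FOXO1 (30 of 33) and mainly upstream for IKZF1 (16 of 21) and BACH2 (34 of 42).

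At IKZF2, on chr2:212999691-213152427, all 18 interactions (100%, 82.4 to 100%) ran through a bin of the gene that held an HLF motif, beside 66.8% of listed interactions with a motif in either bin. These interactions are not independent, as 2 bins carried them. The bin over the last exon, chr2:213000001-213005000, had 11 interactions and 3 motifs, and that in intron 6, chr2:213025001-213030000, had 7 interactions and the motif printed above. The 3 smallest P values belonged to a contact of the last-exon bin with intron 4 (contact count 39, 27.7 to 53.3), to its contact over 1725 kb with a bin 96 kb from ERBB4, a receptor tyrosine kinase gene (contact count 32, 21.9 to 45.2), and to a contact of intron 6 with the upstream flank (contact count 34, 23.5 to 47.5). The contact near ERBB4 was the longest of the gene, and its q-value was 4.89e-16. No IKZF2 interaction had a bin with an annotated start site of the gene.

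IKZF3, on chr17:39757718-39864312, had 12 interactions with contact counts of 15, 16, 20, 20, 23, 24, 24, 29, 30, 31, 32 and 40. The highest joined the bin over exon 7, chr17:39775001-39780000, with chr17:39945001-39950000 beside LRRC3C, 170 kb away, with 40 (28.6 to 54.5) at a q-value of 8.70e-20. The bin beside LRRC3C contacted 3 places in IKZF3. A contact within the gene and its flank (contact count 32) and a contact with PLXDC1, 655 kb downstream (contact count 31), followed. The busiest bin, over exon 3, had 5 interactions and the motif printed above. The longest interaction of IKZF3 joined intron 3 over 2640 kb with ATP6V0A1, a subunit gene of the vacuolar proton pump, with a contact count of 16 (9.15 to 26.0).

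FOXO1, on chr13:40555667-40666641, was contacted from downstream. Of the 33 interactions with a bin outside the gene, 30 led downstream and 3 upstream. In 19 of them that bin lay in LINC00598, a long noncoding RNA gene on the downstream side of FOXO1. The 3 interactions with the smallest P values all joined the 3′ part of FOXO1 with LINC00598, over 135, 115 and 75 kb. Their contact counts were 45 (32.8 to 60.2), 43 (31.1 to 57.9) and 39 (27.7 to 53.3). Interactions were spread over 5 hubs with 5 to 8 interactions each, so that no bin of FOXO1 held more than 20.5% of its interactions, and this share was lower only at BACH2, with 17.5%, and ran up to 61.1% at IKZF2. The hubs with the most interactions, chr13:40565001-40570000 and chr13:40650001-40655000 with 8 each, held no motif, and chr13:40580001-40585000 with 6 held the 2 printed above. An anchor within intron 1 was joined over 2810 kb with TRPC4, a cation channel gene, by 22 read pairs (13.8 to 33.3) at a q-value of 1.80e-08.

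FOXP1, the longest of the genes on chr3:70954693-71583978, had 38 interactions with a median distance of 507.5 kb (195 to 655 kb). The busiest bin, chr3:71060001-71065000, had 12 interactions and 7 internal transcript starts within intron 7 of the canonical transcript. The next were chr3:70990001-70995000 in intron 13, with 11 interactions, and chr3:71550001-71555000 in intron 2, with 8, and both held a motif. The smallest P value belonged to a contact of this intron 2 bin with intron 3, 125 kb apart, with a contact count of 44 (32.0 to 59.1). Another part of intron 2 contacted a bin 790 kb upstream, with RYBP, which encodes a Polycomb-associated protein, as the nearest protein-coding gene, with a contact count of 31 (21.1 to 44.0). The third joined the busiest bin with intron 14 (contact count 35, 24.4 to 48.7). The longest, at 1775 kb, joined the busiest bin with FRMD4B with a contact count of 27 (17.8 to 39.3).

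BACH2, on chr6:89926528-90296843, showed the opposite side to FOXO1. Of its 42 interactions with a bin outside the gene, 34 led upstream and 8 downstream. The upstream partners lay between BACH2 and MAP3K7, which encodes the TAK1 kinase, and beyond. A bin 19 kb from MAP3K7, chr6:90490001-90495000, contacted BACH2 at 4 places with contact counts of 20 to 41, and it had 14 interactions in all and a motif. The smallest P value belonged to a contact between the bin over exon 5 and intron 4, 85 kb apart, with a contact count of 51 (38.0 to 67.1). The second led 435 kb downstream to MDN1, a ribosome assembly ATPase gene, with a contact count of 42 (30.3 to 56.8). The third joined intron 3 with chr6:90480001-90485000 near MAP3K7 with a contact count of 41 (29.4 to 55.6). Of the 63 interactions, 47 (74.6%, 62.7 to 83.7%) had a motif in a bin at BACH2, a measure not computed over the list. With either bin counted the share was 82.5% (71.4 to 90.0%), beside 66.8% of listed interactions. These interactions are not independent, as many share a hub. The 7 hubs were spread from intron 1 to intron 5, and chr6:90085001-90090000 and chr6:90195001-90200000 were the busiest with 11 each. The longest interaction, 2920 kb to a bin 75 kb from EPHA7, had a contact count of 12 (6.20 to 21.0).

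IRF8 and IRF4 are short genes of the same family, and their lists differed. IRF8, on chr16:85899116-85922606, had 7 interactions with contact counts of 13, 23, 23, 26, 29, 30 and 51. The highest joined the bin of the canonical start site, chr16:85895001-85900000, with chr16:85835001-85840000, 60 kb upstream, with 51 (38.0 to 67.1), a P value of 8.74e-28 and a rank of 215 among 3225 at about that distance. The same upstream bin, which held the motif printed above, also contacted the last exons of IRF8 with a contact count of 29 (19.4 to 41.6). The start-site bin was joined in the other direction with chr16:85970001-85975000, in a long noncoding RNA gene 47 kb past IRF8, with a contact count of 30 (20.2 to 42.8). A contact over 2180 kb with BANP had a contact count of 26 (17.0 to 38.1).

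IRF4, on chr6:391739-411443, had no listed interaction in the 9 bins of its window. The nearest anchors lay 21.7 kb before and 28.6 kb after the window and had 1 interaction each, and 19 listed interactions spanned the gene without a bin in it. Widening the window to 50 kb gave 4 interactions with contact counts of 14, 19, 30 and 34, none of them with a bin closer to the gene than these 2 anchors. Of all protein-coding genes whose window was under 50 kb, 5243 of 10510 had at least 1 interaction, so a gene of this size with none was common. The list holds only interactions past its threshold, and a weaker contact of IRF4 was not detectable from it.

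Of 27 paralogs of these factors, 15 had an interaction, with a median of 1, and the 3 with the most were BACH1 with 26, IRF2 with 13 and FOXO6 with 12. Of 14 other regulators of B cell development, 13 had an interaction, with a median of 3.5, and MYB with 13, LEF1 with 12 and PRDM1 with 9 had the most. The median over the 10 genes described here was 20.5. Per 100 kb the medians were 0.873 for the paralogs, 3.90 for the other regulators and 12.6 for the 10 genes. Single related genes reached the level of these, with 28.8 per 100 kb at FOXO6 and 22.5 at MYB, above all of the 10 but FOXO1. The 10 genes were chosen with these data known, so the difference between the lists was not tested.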

How the data were processed

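TCF3::HLF-HiChIP of TCF3-KO HAL-01 cells was measured in 2 replicates. The authors trimmed the reads (Trim Galore 0.6.6, per the submitters' processing notes), merged the replicates, aligned to hg38 with BWA-MEM, extracted pairs with pairtools without removing duplicates, called MACS2 peaks as reference and called interactions with FitHiChIP (5 kb bins, 50 kb to 3 Mb, q-value below 0.01), with nearby contacts merged. The FitHiChIP version is not given in the sources used here. The deposited contact count is the unnormalized count of read pairs, and its sum over a merged group is repeated on each line of the group. The p-value and q-value deposited by the authors adjust for distance and coverage. The deposited fraction of significant bin pairs per group was not used in a result. The 49245 listed interactions summed to 1268490 read pairs, and the depth of each replicate is not known from the list.

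Every bin lay within its hg38 chromosome. Bins were joined to GENCODE release 44 with Python 3.11.15, pandas 2.3.3 and scipy 1.17.1. No interaction at the genes had 500 or more 31-mers shared between its bins. Shares have Wilson, single counts exact Poisson and medians order-statistic 95% intervals. The counting and the intervals were tested on simulated data. No test across samples was made. The genes and gene lists were chosen with earlier results of these data known.

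Named were every member gene, the genes at the partner bins of its 3 interactions with the smallest P value and of its longest interaction, its busiest bin, the 3 genes with the most interactions in each list of related genes, and promoters joined with a start-site bin. Other bins and partner genes were named after their values were seen.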

Additional observations from a re-analysis of the deposited data

How the results depend on the processing

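No paired analysis was possible because the replicates were merged before interactions were called, so leaving out a replicate was not an option either. The number of interactions at the genes stayed within 1.5 times of 276 under all alternatives but one (193 with a q-value below 1e-05, 327 with 50 kb around the genes), and leaving out each gene in turn gave 213 to 276. Keeping only the merged groups, those with more than 1 bin pair, left 31 interactions, with a median contact count of 35, a median distance of 110 kb, 58.1% with both bins at the same gene, 4 with a start-site bin and an HLF motif in 55.9% of anchor bins. The median contact count was 25.5 with a q-value below 0.001, 28 with a q-value below 1e-05 and 27 with a contact count of at least 20, as these alternatives remove low counts. Interactions with a start-site bin numbered 158 when a bin within 10 kb of a start counted, 20 without FOXP1 and, as chosen after seeing the data, 2 with the canonical start sites only. An HLF motif counted as TTACGTAA only was present in 2.05% of anchor bins. Bins 50 kb from the anchors gave a motif share within the interval of those 25 kb away. The interaction with the smallest P value also had the largest contact count at all 9 genes, and another had the largest sum of its merged group at 5 of them (PAX5, IKZF1, IKZF2, IKZF3 and FOXO1). Counted per 100 kb, 2 of the 10 genes (IKZF2 and IRF4) kept their place in the order. All intervals cover counting error only, and depth limits what can be said of contacts that are not listed.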
